A study of Caenorhabditis elegans with 2 samples.

Results

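The genes described here are the 5 Wnt ligand genes of Caenorhabditis elegans, egl-20, cwn-1, cwn-2, lin-44 and mom-2, and mig-14, which encodes the Wnt sorting receptor needed for their secretion. They were set by name, 6 of the 19973 protein-coding genes annotated on the nuclear chromosomes for their role in Wnt signalling, and the rule for taking their regions used no rank or signal. Earlier results of these data were known when the genes were chosen. The data are chromatin immunoprecipitation with sequencing (ChIP-seq) of eGFP-tagged LIN-39, a Hox transcription factor, in whole L2 larvae of both sexes. All animals were of strain OP18, genotype unc-119(ed3) III; wgIs18, in which the tagged lin-39 is an insertion whose promoter the labels do not describe. The single group had 2 biological replicates, and no other genotype, stage, factor or control library was among the samples. Whole animals mix all cell types, so a region cannot be placed in one of them. For each gene, every region was taken whose summit lay between 5 kb upstream of the annotated gene start and the end of the gene. These windows held 18 of the 30000 candidate regions called on both replicates together, which are called pooled regions below. They held 21 regions of the list of replicate 1 and 18 of the list of replicate 2. That is 0.347 pooled regions per kb, with 0.404 in replicate 1 and 0.347 in replicate 2, against 0.299 per kb of genome in each list. The whole genome is not a set of like windows. Coding genes with windows of like length had a median of 2 pooled regions, 2 of replicate 1 and 3 of replicate 2. The 6 windows held 1 to 5 pooled regions each. Regions were ranked within their list by the authors' signal value, with rank 1 the strongest. Every list has exactly 30000 regions, and the authors named these lists as peaks and background, so a weak rank may be background. The authors' own thresholded list is made of the strongest 1.04% of the pooled regions, those with a signal of 42.4 or more. These are called the thresholded regions below, and an equal number of the strongest regions was taken from each replicate for comparison. Read depth is unknown from these files.

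Wnt proteins are secreted, lipid-modified signals. Porcupine attaches the lipid, the Wntless protein MIG-14 carries the ligand to the cell surface, and the retromer returns MIG-14 for reuse. Ligands bind Frizzled, Ryk and Ror receptors, and beta-catenin with TCF then alters transcription. In the worm, Wnt signals orient dividing cells, steer migrating neuroblasts and act in the vulval precursor cells. Hox genes, lin-39 among them, are known to act downstream of Wnt signals there. The regions below are candidates for the Hox protein near the genes that make and export the signal, and most of them did not pass the authors' threshold. A region near a gene does not show that the gene is regulated.

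The sequences below are the 201 bases centred on the summits of the strongest region of 4 genes and of the egl-20 upstream region that replicate 2 ranked highest, because the ranks given for these genes turn on them. They were read from the WBcel235 (ce11) genome of RefSeq, on the strand of the gene, 5′ to 3′. Capitals mark the word GAGAGA on either strand, which then reads TCTCTC, or the Hox with Pbx word TGATNNAT on either strand. The regions of cwn-2 (chrIV:10065257-10065457) and cwn-1 (chrII:133951-134151) each had 1 GAGAGA. Those of mom-2 (chrV:8354044-8354244), mig-14 (chrII:13738053-13738253) and egl-20 (chrIV:9816791-9816991) had neither word.
cwn-2, rank 302: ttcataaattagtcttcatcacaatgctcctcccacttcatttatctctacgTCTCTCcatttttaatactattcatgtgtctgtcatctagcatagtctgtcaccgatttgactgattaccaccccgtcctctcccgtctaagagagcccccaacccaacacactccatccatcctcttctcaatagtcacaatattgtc
cwn-1, rank 555: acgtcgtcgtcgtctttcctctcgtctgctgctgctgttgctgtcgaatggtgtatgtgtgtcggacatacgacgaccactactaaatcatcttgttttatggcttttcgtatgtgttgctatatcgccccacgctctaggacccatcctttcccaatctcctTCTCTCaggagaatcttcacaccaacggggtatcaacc
mom-2, rank 1284: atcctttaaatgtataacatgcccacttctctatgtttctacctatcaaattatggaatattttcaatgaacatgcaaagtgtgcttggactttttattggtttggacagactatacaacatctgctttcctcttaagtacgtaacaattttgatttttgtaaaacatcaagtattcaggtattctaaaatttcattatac
mig-14, rank 2009: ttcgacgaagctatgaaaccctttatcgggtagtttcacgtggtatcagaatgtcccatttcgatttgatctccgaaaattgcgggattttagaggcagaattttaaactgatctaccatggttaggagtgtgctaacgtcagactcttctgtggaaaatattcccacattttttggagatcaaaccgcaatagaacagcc
egl-20, rank 5576: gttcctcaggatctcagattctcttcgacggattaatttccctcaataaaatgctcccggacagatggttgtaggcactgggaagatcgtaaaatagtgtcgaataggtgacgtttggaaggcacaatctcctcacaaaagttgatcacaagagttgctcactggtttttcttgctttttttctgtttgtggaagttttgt

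The windows of the Wnt ligand genes held 1 region that passed the authors' threshold, upstream of cwn-2. Among the 6 genes 1 had a thresholded region, where 2.54% of all coding genes did. With the limit at the 2000 strongest, cwn-1, cwn-2 and mom-2 had a region, 3 of 6, where 13.8% of coding genes did. The gene mig-14 stood just outside that limit, at rank 2009. All 6 genes had some pooled region, as had 87.7% of coding genes. The windows were 7198 to 13246 bp long. Among the 7728 coding genes with windows in that range, 3.00% had a thresholded region and 15.5% one among the 2000 strongest. The median of the best pooled ranks was 1646.5 over the 6 genes and 7231 over those 7728. These counts rest on 6 genes, and no test was made.

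The replicates were also taken singly. At a limit as strict as the thresholded list, 0 of 6 genes were reached in replicate 1, where 2.46% of coding genes were, and 0 of 6 in replicate 2, where 2.48% were. At shares this low, 0 of 6 does not set these genes apart from other coding genes. Among the 2000 strongest of replicate 1 were regions of cwn-1, cwn-2 and mom-2, 3 of 6 genes, against 14% of coding genes. Among the 2000 strongest of replicate 2 were regions of cwn-1, mig-14 and egl-20, also 3 of 6, against 14.2%. Only cwn-1 of the 6 was thus on both counts, against 4.72% of coding genes. Its 2 strong regions were at different places, 3934 bp upstream in replicate 1 and 433 bp upstream in replicate 2. Overlapping regions among the 2000 strongest of both replicates were found for 0 of the 6 genes and for 3.21% of coding genes. That share too is so low that 0 of 6 does not set the genes apart.

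**Figure D1:**
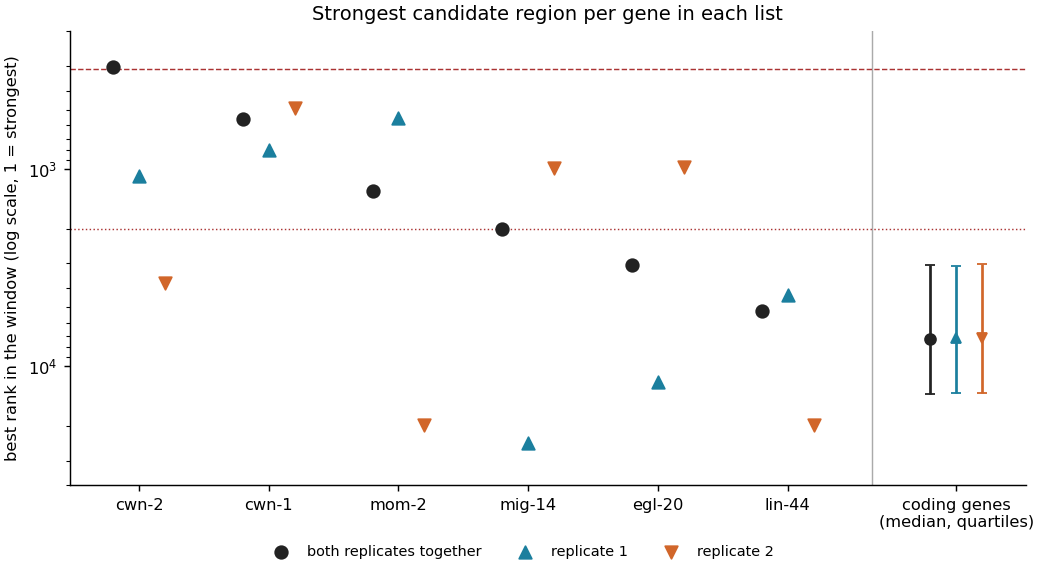
Best rank in the window of each gene (vertical log axis, 1 = strongest) in the list from both replicates together (circles), replicate 1 (upward triangles) and replicate 2 (downward triangles). On the right are the median and quartiles of the 7728 coding genes with windows of like length; the dashed line is the rank of the last thresholded region and the dotted line rank 2000. The cwn-2 circle, at 302, is the only point above the dashed line; the triangles lie at 549 and 19825 for mom-2 and at 24570 and 986 for mig-14.

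The gene cwn-2 (WBGene00000858) encodes a Wnt known for its part in placing the nerve ring and neurites, and lies at chrIV:10067816-10070251 on the plus strand. Its strongest region, chrIV:10065202-10065511, was intergenic, 2459 bp upstream of the gene start, with cwn-2 as the nearest coding gene start. Its signal was 42.8, its pooled rank 302, and its rank 1079 in replicate 1 and 3775 in replicate 2. It thus stood near the foot of the thresholded regions, whose lowest signal was 42.4, and in neither replicate alone did it rank as high. A second region lay in coding sequence of cwn-2, 610 bp inside the gene, at pooled rank 5891 and rank 1305 in replicate 1. No region of replicate 2 overlapped it. The third, 4025 bp upstream at pooled rank 20927, was nearest the start of the neighbouring gene ipla-7, and had rank 3912 in replicate 1 only. Of the coding genes, 2.46% had a best pooled rank as strong as that of cwn-2.

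The gene cwn-1 (WBGene00000857), a Wnt that acts together with EGL-20 in cell migration, lies at chrII:130983-133598 on the minus strand. Its strongest region, chrII:133896-134205, was 453 bp upstream of the start, and it was the one best region of the 6 genes to lie within 1000 bp upstream of a coding gene start. Its pooled signal was 36.7, at rank 555. In replicate 2 it had rank 490 and in replicate 1 rank 6848. It overlaps the annotated noncoding RNA gene K10B4.8. The next regions lay in coding sequence of the upstream neighbour K10B4.1. One, at pooled rank 3217 and 4427 bp from the cwn-1 start, had rank 5885 in replicate 2 and no partner in replicate 1. The other, at pooled rank 28190 and 3994 bp away, had rank 798 in replicate 1 and no partner in replicate 2. The fourth region, at rank 25938, was in an intron of cwn-1. Of the coding genes, 4.30% had a best pooled rank as strong as that of cwn-1.

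The gene mom-2 (WBGene00003395), the Wnt that polarises an early embryonic blastomere to make endoderm, lies at chrV:8355988-8358185 on the plus strand. All 5 of its pooled regions were intergenic and upstream. The strongest, chrV:8353989-8354298, lay 1844 bp upstream over the annotated pseudogene WBGene00044126. It had signal 31.2 and pooled rank 1284. Replicate 1 ranked it 549 and replicate 2 ranked it 19825, a rank 36.1 times as large. The second, 2682 bp upstream at pooled rank 4504, had rank 1022 in replicate 1 and no partner in replicate 2; its nearest coding gene start was that of srsx-22. The regions 4961, 1094 and 233 bp upstream had pooled ranks 13218, 29819 and 25434. The last of these was promoter-proximal and was matched in replicate 2 alone, at rank 29570. Within the 5 kb window the signal near mom-2 was therefore a replicate 1 signal. Of its regions, 2 were within rank 2000 in replicate 1, and the best mom-2 rank in replicate 2 was 19825. This does not extend to the wider window. With windows starting 10 kb upstream, the best pooled region of mom-2, at rank 463, was within rank 2000 in both replicates. Replicate 2 ranked that region higher than replicate 1 did.

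The gene mig-14 (WBGene00003246), at chrII:13741738-13749983 on the plus strand, is the longest of the 6, at 8246 bp, and had the fewest pooled regions. Its single pooled region, chrII:13737998-13738307, was intergenic, 3585 bp upstream, with signal 28.8 at rank 2009. Its nearest coding gene start was that of R06B9.5, 1833 bp away. Replicate 2 gave it rank 986 and replicate 1 rank 24570. Replicate 2 had 3 further regions upstream of mig-14, 3437, 4215 and 2092 bp from the start, at ranks 5331, 5452 and 18729. The one at rank 5331 also overlapped the pooled region and the replicate 1 region at rank 24570. The rule of largest overlap with the pooled region paired 986 with 24570, and taking the strongest overlapping region gave the same pair. No list had a region inside the gene itself.

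The gene egl-20 (WBGene00001188) encodes the posterior Wnt that directs the left Q neuroblast descendants backwards through the Hox gene mab-5. It lies at chrIV:9812357-9815532 on the minus strand. Its strongest pooled region, chrIV:9813496-9813805, was in its own coding sequence, 1881 bp inside the gene, with signal 26.7 at rank 3055. Both replicates listed it low, at rank 11976 and 13326. The second, at rank 4296, lay in coding sequence of the neighbour catp-6, 4758 bp from the egl-20 start, with ranks 14318 and 7136 in replicates 1 and 2. The third, chrIV:9816736-9817045, was intergenic, 1359 bp upstream of egl-20, at pooled rank 5576. Replicate 2 ranked it 981, and replicate 1 had no overlapping region. The 2 replicate ranks of its strongest pooled region were thus close, at a low level, while the region 1359 bp upstream was listed in replicate 2 alone. The window held 6 regions of replicate 1 and 5 of replicate 2, and among them the one at rank 981 was alone within rank 2000.

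The gene lin-44 (WBGene00003029), which encodes a Wnt made in the tail that orients asymmetric divisions there, had the weakest best region of the 6. It lies at chrI:4126056-4129310 on the plus strand. Its pooled regions, at ranks 5215 and 11023, were both in its introns, 762 and 1414 bp inside the gene. The first had signal 24.3, rank 4332 in replicate 1 and rank 19886 in replicate 2. No pooled region lay upstream of lin-44, and upstream regions of the single replicates were at ranks 29168 and 27379, 229 and 980 bp from the start. Of the coding genes, 32.1% had a best pooled rank as strong.

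**Figure D2:**
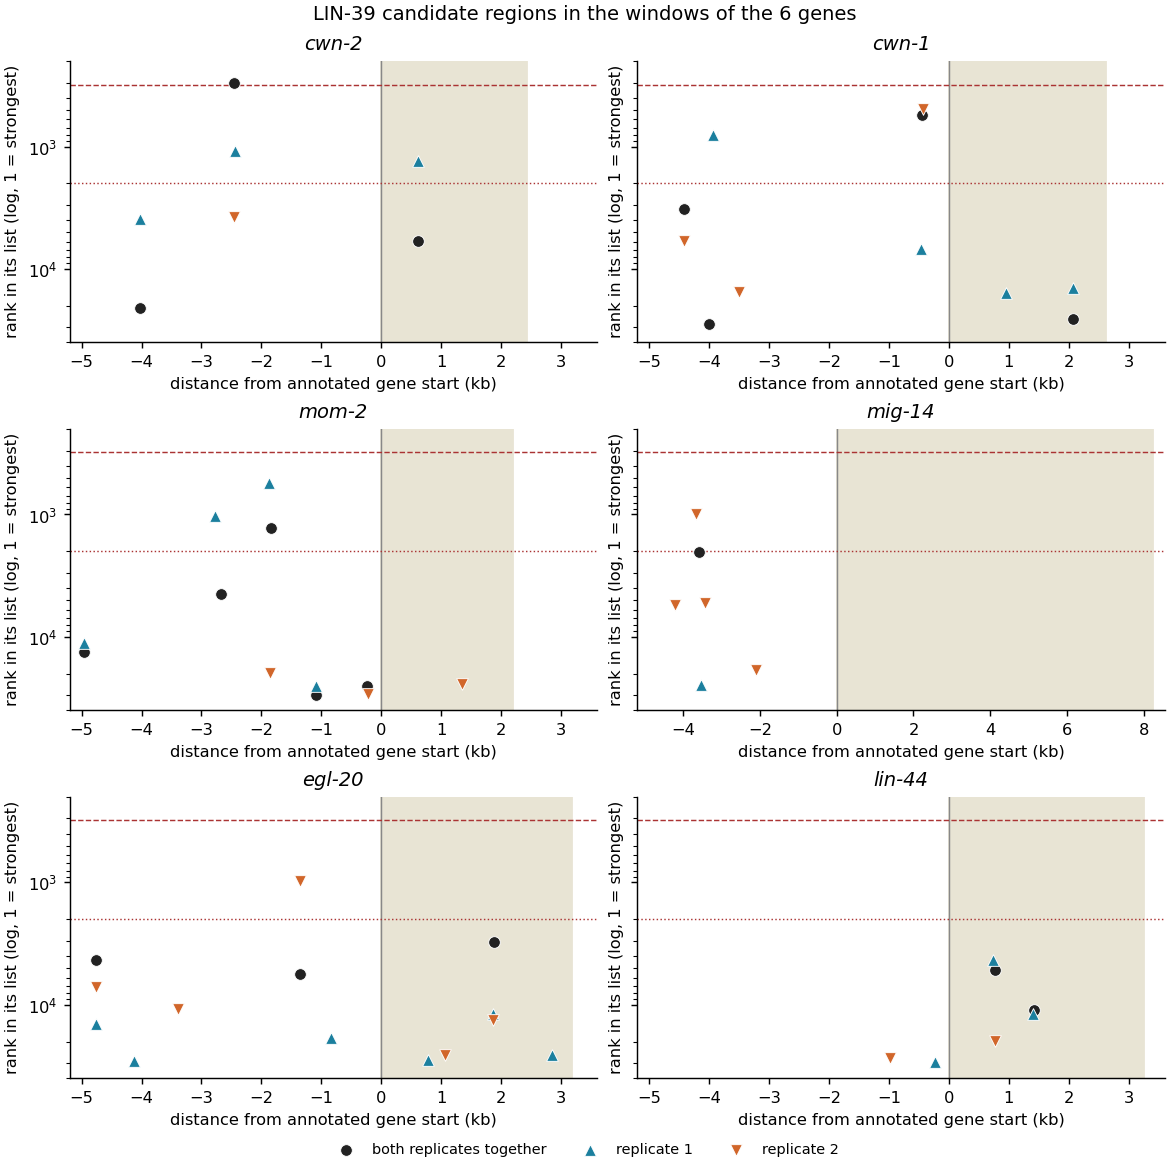
Position of each region relative to the annotated gene start (horizontal axis, kb, gene shaded) against its rank in its own list (vertical log axis, 1 = strongest), 1 panel per gene. Circles are the list from both replicates together and triangles the single replicates; the dashed line is the rank of the last thresholded region and the dotted line rank 2000. Triangles of both colours stand above the dotted line in the cwn-1 panel only, at different positions.

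The order of the best pooled ranks was cwn-2 (302), cwn-1 (555), mom-2 (1284), mig-14 (2009), egl-20 (3055) and lin-44 (5215). With windows starting 10 kb upstream mom-2, at 463, came before cwn-1. The single replicates gave other orders. Best ranks in the windows were 1079 and 3775 for cwn-2 and 798 and 490 for cwn-1, in replicates 1 and 2. By best rank anywhere in the window, each replicate thus put cwn-1 above cwn-2. The 798 and 490 of cwn-1 came from different regions, however. At the strongest pooled region of cwn-1, replicate 1 had rank 6848, weaker than the 1079 of cwn-2. The best ranks were 549 and 19825 for mom-2, 24570 and 986 for mig-14, 11976 and 981 for egl-20, and 4332 and 19886 for lin-44. Those of egl-20 also came from different regions. From cwn-1 downwards, the span between replicates overlapped that of the next gene at every step. In replicate 1 lin-44 and mom-2 stood above egl-20 and mig-14, and in replicate 2 below them.

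In the 6 windows 15 regions of replicate 1 and 11 of replicate 2 overlapped a pooled region. Agreement between replicates was next set against other pooled regions. Of the 18 regions, 7 overlapped a region in both replicate lists (38.9%, 95% Clopper-Pearson interval 17.3 to 64.2), 11 in one list only and 0 in neither. Over all 30000 pooled regions the share in both was 34.9%. The intervals cover the counting of regions only. The strongest region of each of the 6 genes was found in both lists, 6 of 6. Among the 4914 pooled regions between ranks 302 and 5215, 78.8% were. For those 6 the weaker replicate rank was a median 9.28 times the stronger one, from 1.11 for egl-20 to 36.1 for mom-2. Over the 3871 of the 4914 regions that were found in both lists the median was 3.68, with quartiles 1.92 and 8.49. Both ranks were within 2000 for 0 of the 6 and for 3.36% of the 4914. A match requires overlap of regions 300 to 330 bp wide, which by itself limits how far apart matched summits can lie. The largest distance among all matches was 100 bp, for mom-2 at pooled rank 4504 in replicate 1. For the strongest region of each gene the replicate 1 summit was 10 to 49 bp from the pooled one, and the replicate 2 summit 3 to 72 bp.

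**Figure D3:**
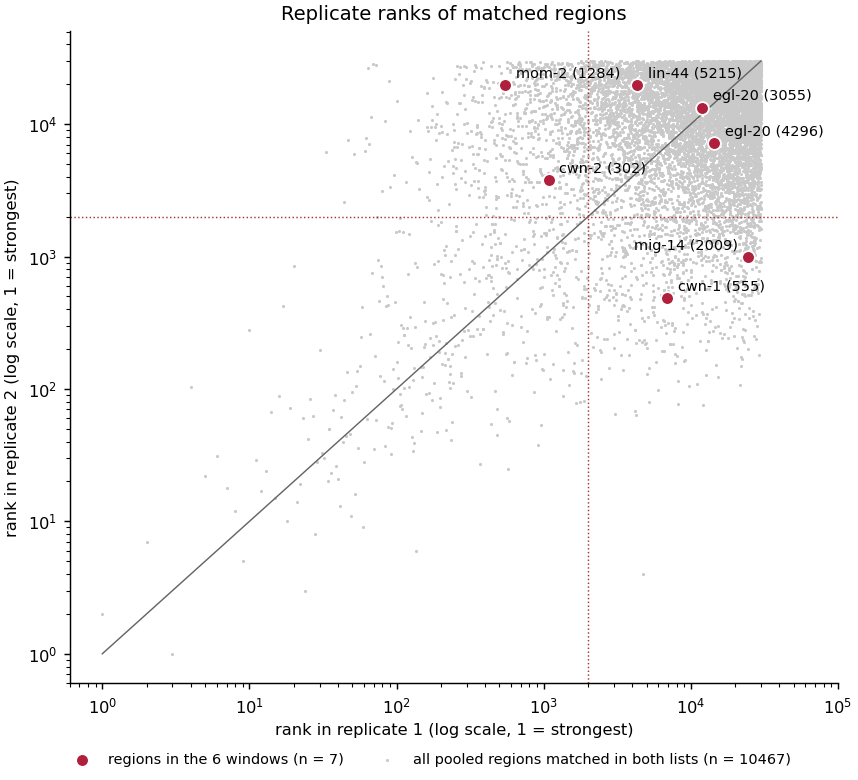
Rank in replicate 1 (horizontal) against rank in replicate 2 (vertical), both on log axes, for the 7 regions in the 6 windows matched in both lists (red, with gene and pooled rank) and all 10467 such pooled regions (grey). The diagonal marks equal ranks and dotted lines rank 2000. No red point lies in the lower left square where both ranks are within 2000; mom-2 lies above the diagonal, and cwn-1 and mig-14 below it.

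By location, 10 of the 18 regions were intergenic (55.6%), 3 intronic and 5 in coding sequence. Over all pooled regions 36.9% were intergenic, and of the thresholded regions 65.6%. Upstream of the gene start lay 13 of the 18, and 5 lay inside one of the 6 genes. Of the 18, 4 were promoter-proximal, meaning at most 1000 bp before or 200 bp after a coding gene start, and 11 had the start of one of the 6 genes as the nearest. Among all pooled regions 26.8% were promoter-proximal. The other 7 were nearest the start of a neighbour, namely catp-6, K10B4.1, ipla-7, srsx-22 or R06B9.5. Every 36-base word in all 18 regions occurred once in the 6 chromosomes, so reads of that length would have had a single exact match there. Near matches were not counted.

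The intervals of the shares of the 18 regions that carried the searched words took in the shares of all pooled regions. GAGAGA lay within 100 bp of 3 summits (16.7%, 95% Clopper-Pearson interval 3.58 to 41.4), against 13.1% of all pooled regions and 45.0% of the thresholded ones. The regions were the strongest and the coding one of cwn-2, and the strongest of cwn-1. TGATNNAT lay within 100 bp of 3 others (16.7%, interval 3.58 to 41.4), against 17.0% of all pooled regions and 21.5% of the thresholded ones. The homeodomain core TAATTA and the GATA-type word TGATAA were each found in 1 of the 18 regions, the second one of mom-2, and in 9.22% and 18.9% of all pooled regions. The sequence about the strongest cwn-2 summit was 66.7% C and T on the strand of the gene, and that about the cwn-1 summit 62.2%. Counting whichever strand is richer, 2.27% and 7.76% of all pooled regions reached these shares, and 9.97% and 23.8% of the thresholded ones. Counted in that way, the strongest regions of the other genes had lower shares. These were 56.7% for mom-2, 53.7% for egl-20, 51.7% for lin-44 and 50.25% for mig-14. The median was 54.2% over all pooled regions and 56.7% over the thresholded ones. Word matches of this kind are descriptions and not sites. Stretches about the word in 3 of the other regions were as follows, on the strand of the named gene, with the word in capitals.
cwn-2, rank 5891: tataaatatataTCTCTCattatctttttt
cwn-1, rank 3217: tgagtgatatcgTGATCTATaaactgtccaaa
mom-2, rank 4504: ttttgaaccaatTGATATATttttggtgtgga

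By the rule used, 3 coding genes had a pattern most like that of cwn-2, by the distance between log10 best ranks over the 3 lists, among 15339 candidates. These were acy-3 (best pooled rank 381, best replicate ranks 908 and 5160, distance 0.185), and klc-1 and let-70 (231, 881 and 2454, distance 0.237), which share their region. The ranks are the best in the window and need not come from one region. The region at pooled rank 381 had rank 1785 in replicate 1, so the 908 of acy-3 belongs to another region.

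Other genes of the pathway were then looked at in the same windows. Among the rest of the Wnt secretion machinery, 1 of 9 genes had a thresholded region and 2 of 9 one among the 2000 strongest. The thresholded region was at mom-1, the worm Porcupine gene on X, whose single pooled region had rank 18, signal 110.5, and ranks 28 and 8 in replicates 1 and 2. It lay in an intron of mom-1, 3493 bp inside the gene, at chrX:6296450-6296759, and its nearest coding gene start was that of cest-16. None of the 6 genes had a region of such rank in any of the 3 lists. Within 100 bp of its summit the word GCGCAGGG, part of the consensus of dosage compensation sites on X, occurred 2 times, where 35 of all pooled regions (0.117%) held it at all. That word was looked for after the region had been seen. Its share among regions on X or among the thresholded regions was not taken, so its rarity in regions of this kind was not tested. The word is in capitals in the sequence, given on the plus strand.
mom-1, rank 18: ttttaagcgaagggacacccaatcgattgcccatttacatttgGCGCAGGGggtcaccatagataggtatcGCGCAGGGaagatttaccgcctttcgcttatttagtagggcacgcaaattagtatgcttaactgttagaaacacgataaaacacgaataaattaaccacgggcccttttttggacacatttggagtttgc

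Of the retromer genes vps-35, vps-26 and vps-29, which return MIG-14 to the Golgi, the best pooled ranks were 7296, 5503 and 4609. The sorting nexin genes snx-3 and snx-1 had 17810 and 6030, the myotubularin genes mtm-3 and mtm-6 had 1553 and 2876, and dpy-23, an AP2 adaptor subunit gene, had 28763. Of 7 receptor and co-receptor genes, 4 had a thresholded region: the Ror gene cam-1 (rank 60) and the Frizzled genes mom-5 (69), mig-1 (109) and lin-17 (181). Of 16 cytoplasmic and nuclear genes, 3 had one: the kinase gene gsk-3 (55), the TCF gene pop-1 (120) and the Groucho gene unc-37 (277). The secreted antagonist gene sfrp-1 had a best rank of 4571, and among the Hox genes known as Wnt outputs mab-5 was best, at 388. The lin-39 window held no region of any list, where 87.7% of coding genes had a pooled one. The cause was not tested, and an empty window does not show that LIN-39 was absent there. In all, 8 of these 36 genes had a thresholded region, where 2.54% of coding genes did, and 16 one among the 2000 strongest, where 13.8% did. The median best rank was 2663.5 over those with a region, and 7785 over all coding genes with one. Several of these windows are longer than those of the ligand genes, up to 27414 bp for lit-1. Among genes with a thresholded region, the windows of cam-1 (19390 bp), lin-17 (15667) and mig-1 (13888) exceeded the longest of the 6 genes, 13246 bp. The others had at most 13069 bp. No share of coding genes with windows of like length was taken for these 36 genes. The regions of mom-5, lin-17 and gsk-3 were nearest the start of another gene. The median best rank was 145 over the 6 receptor genes with a region and 1646.5 over the ligand genes with mig-14; whether they differ was not tested.

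**Figure D4:**
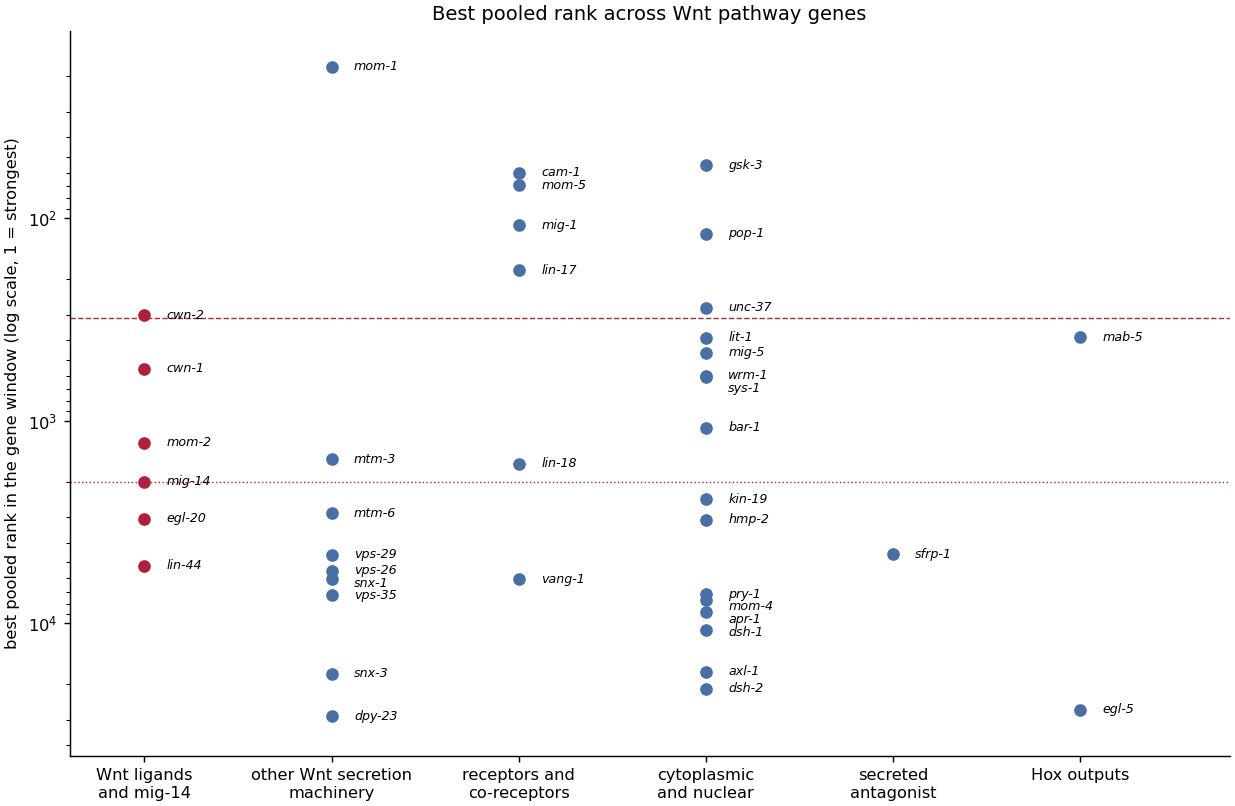
Best pooled rank in the gene window (vertical log axis, 1 = strongest) for the 6 genes (red) and other Wnt pathway genes (blue) by role. The dashed line is the rank of the last thresholded region and the dotted line rank 2000; cfz-2 and lin-39 have no pooled region and are not drawn. The ligand genes and mig-14 run from 302 to 5215, while mom-1 is at 18 and 4 of the receptor genes lie between 60 and 181.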

How the data were processed

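LIN-39 ChIP-seq regions were compared for 2 biological replicates of 1 group. Per the text files deposited with each library, each replicate's ce11 candidate list came from its alignments and a further file shared by both, and the list from both replicates and the thresholded list were derived in turn. No source used here gives the aligner, the caller or the thresholds. The signal column the authors deposited was used to rank and describe regions within a list and not between lists (ties share the lowest rank), since its normalization is not stated. The deposited q column, which falls below 0 in the pooled list, was treated as a score and no value of it is printed. Region widths were 310, 330 and 300 bp in the pooled, replicate 1 and replicate 2 lists.

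Gene models were those of Ensembl release 115 on WBcel235. All regions ended within its chromosomes, whose coordinates are those of ce11. A replicate match was the region of largest overlap, at least 1 bp. A share of coding genes was computed in the same windows for all 19973 genes. Window, overlap and word code was tested on simulated data. Python 3.11.15, NumPy 2.4.6, SciPy 1.17.1 and pandas 2.3.3 were used. The ce10 lists were not used here. Per the labels the replicates are biological; no test was made, and intervals are exact Clopper-Pearson at 95% and cover counting only.

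The 6 genes, the pathway lists and the words were chosen with earlier results of these data known. All 6 genes are named; of the other pathway genes, those with a thresholded region and the best of each list are named, and the remaining secretion genes are given in addition. The 3 genes most like cwn-2 exclude genes with the same region. Alternatives covered the window, rank limits, single replicates, overlap and word window. Sequences are printed for some of the regions, and 1 of the others is not reported here.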

Additional observations from a re-analysis of the deposited data

How the results depend on the processing

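No paired analysis was possible because there is 1 group. Of 73 alternative values over 25 results, 57 were counted as unchanged and 16 as moved. The limits were set from the replicate spread, the counting interval or 1.5 times the count. For each gene, the single-replicate best rank further from the pooled one counted as moved, although it is itself an end of that spread. For mom-2 the spread was so wide that 463 against 1284 counted as unchanged. For best ranks the tally therefore says little about how firm they are. For genes with a thresholded region (1 as reported), the count was 0 with windows starting 2 kb upstream, 0 with a list of about 50% of the length, 2 with one of double the length, and 0 to 0 with either replicate alone. For genes within the 2000 strongest (3 as reported), a limit of 5000 gave 5. A limit of 1000 gave 2, as did windows starting 2 kb upstream. The count stayed at 3 with windows starting 10 kb upstream and with either replicate alone. Windows starting 2 kb upstream held 10 regions in place of 18. The best rank of cwn-2 was then 5891, and mig-14 had no region. With windows starting 10 kb upstream the best rank of mom-2 was 463, ahead of cwn-1 at 555, and that of egl-20 was 2319. With either replicate alone the best rank ran from 981 to 11976 for egl-20, 490 to 798 for cwn-1, 1079 to 3775 for cwn-2, 4332 to 19886 for lin-44, 549 to 19825 for mom-2 and 986 to 24570 for mig-14. For egl-20 and cwn-1 these ranks came from different regions in the 2 replicates. The share of all coding genes within the 2000 strongest was 9.08% with 2 kb upstream and 21.0% with 10 kb, against 13.8%. The cause of these shifts was not tested beyond the fewer or more regions that a window or limit takes in by construction. For mig-14 no pooled region had the gene's own start nearest, so that alternative gave no value. The caller's signal and 2 replicates limit what an order of ranks can show.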
